A study of Homo sapiens with 6 samples.

Results

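The 5 NF-kB subunit genes (NFKB1, NFKB2, RELA, RELB and REL) and 5 genes of the negative feedback and survival output of the pathway (NFKBIA, NFKBIE, TNFAIP3, TNIP1 and BIRC3) were followed in BT-549 cells with and without silencing of PBRM1. These 10 genes were taken by their symbols from the 37887 rows of the deposited count table, and all 10 were found and passed the filter on low counts. RNA-seq was performed on 6 libraries of the BT549 line, an established triple-negative breast cancer (TNBC) cell line. The 3 control libraries carry the title control shRNA and the treatment label DMSO, and the 3 shPBRM1 libraries the treatment label doxycycline (DOX). The series design describes 1 stable cell population with a tet-inducible PBRM1 shRNA, in which DMSO at 0.1% served as vehicle and DOX was used at 500 ng/ml. It was therefore not clear whether the control libraries hold a control shRNA or the uninduced PBRM1 shRNA. What DOX and what PBRM1 silencing contributed cannot be told apart, and the duration of treatment was not given in the sources used here. The series addresses how PBRM1, a bromodomain protein that defines the PBAF form of the SWI/SNF remodeler, affects inflammatory gene expression in these cells.

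NF-kB transcription factors are dimers of 5 related proteins that share a DNA-binding Rel homology domain. RELA, RELB and REL carry transactivation domains, whereas NFKB1 and NFKB2 encode precursors that are processed to DNA-binding subunits without one. Inhibitors of the IkB family hold the dimers in the cytoplasm until an IkB kinase complex marks them for degradation (the canonical pathway) or until the NFKB2 precursor is processed to release RELB dimers (the non-canonical pathway). Active NF-kB induces many of its own regulators, including NFKBIA, TNFAIP3 and BIRC3, and in TNBC cells the pathway is known for chronic cytokine production and survival signaling.

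Several of these genes carry matches to the kB site, the DNA motif that NF-kB dimers bind, just before their RefSeq start sites. Promoter windows of 300 bases (250 before to 50 after the start, RefSeq, GRCh38.p14) were listed for 8 of the 10 genes, in 13 windows. RELB and NFKBIE were not among them. The kB site was searched by its consensus on both strands. A match was present in a window of 7 of these 8 genes, beside 13.3% of all 27305 genes. The 7 genes were NFKB1, NFKB2, REL, NFKBIA, TNFAIP3, TNIP1 and BIRC3. Of the 13 windows, 8 held a match, beside 11.3% of all 35116 windows. The 8 genes had more windows each than all genes on average, which raises the chance of a match per gene. They were also chosen as NF-kB subunit and feedback genes, several of them known targets. Their share of matches is therefore not an independent finding. The interferon-stimulated response element core GAAANNGAA, also searched on both strands, was found for RELA and NFKBIA and in 9.86% of all genes. The STAT-binding core TTCNNNGAA, a palindrome that matches on both strands at once, was found for RELA and in 9.38% of all genes. None of the interferon and STAT core matches of these genes overlapped a kB match. Matches describe letters in these windows and show no binding. To let the sites be compared, 30 bases around matches of each gene are given 5′ to 3′ on the strand of the gene, with the kB matches in capitals. For NFKB2, 1 of 2 stretches with a match is shown at each of 2 start sites, and the others are left out.

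REL: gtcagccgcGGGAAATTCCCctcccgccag
NFKB1: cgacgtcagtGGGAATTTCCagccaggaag
NFKB2: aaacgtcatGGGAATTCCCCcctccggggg
NFKB2, second start: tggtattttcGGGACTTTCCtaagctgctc
NFKBIA: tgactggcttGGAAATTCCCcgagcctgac
TNFAIP3: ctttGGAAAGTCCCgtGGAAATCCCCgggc
TNIP1: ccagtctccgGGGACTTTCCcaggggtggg
BIRC3, distal: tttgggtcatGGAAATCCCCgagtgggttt
BIRC3, proximal: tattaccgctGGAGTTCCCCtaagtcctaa

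These stretches lie at chr2:60881518-60881547 (+) for REL, chr4:102501300-102501329 (+) for NFKB1, chr10:102394462-102394491 (+) and chr10:102395674-102395703 (+) for NFKB2, and chr14:35404811-35404840 (-) for NFKBIA. They lie at chr6:137867188-137867217 (+) for TNFAIP3, chr5:151081057-151081086 (-) for TNIP1, and chr11:102317275-102317304 (+) and chr11:102317339-102317368 (+) for BIRC3. The capitals in REL and in the first NFKB2 stretch span 11 bases, because matches on the opposite strands are offset by 1 base. The TNFAIP3 stretch holds 2 matches, both on the opposite strand, from -67 to -58 and from -55 to -46 relative to the start site. In GENCODE v29 all of these stretches except those of NFKBIA and BIRC3 overlap an annotated exon of their gene by at least 1 base. The TNIP1 stretch precedes a start site at 151081034, which lies inside the annotated gene (151029945 to 151093577, minus strand). It is thus not before the outermost annotated start of TNIP1.

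The libraries held between 36429395 and 65096297 counts. The floor of detection, 3 counts, corresponded to between 0.0461 and 0.0824 CPM (counts scaled to a library of 1000000 counts). This floor covers counting error only and uses total counts, whereas the other CPM values use library sizes scaled by TMM factors. PBRM1 transcripts fell to 26.5% of the control level, from 157, 157 and 161 CPM in control libraries 1 to 3 to 43.3, 40.9 and 41.7 CPM in shPBRM1 libraries 1 to 3 (log2 fold change -1.91). SMIM4, on the opposite strand, shares exon sequence with PBRM1. The shPBRM1 library 1 stood apart from the other shPBRM1 libraries, where chi-square divided by its degrees of freedom was 21.5 and 24.9, beside 7.20 between libraries 2 and 3 and 4.92 to 7.35 among the controls. Without it, all 10 genes kept their side of the threshold and the log2 fold changes moved by at most 0.076. The mesenchymal markers VIM, FN1 and CDH2 summed to 1407 to 1450 CPM in control and 1340.3 to 1376 CPM in shPBRM1 libraries, but moved apart. FN1 fell from 554 to 221 CPM, whereas VIM rose from 621 to 769.8 CPM and CDH2 from 252 to 366 CPM. Of the breast receptor markers, the hormone receptors ESR1 and PGR were at 0 to 2 and 0 to 12 counts per library. ERBB2, which is not a hormone receptor, was expressed at 51.3 CPM on average in control and 50.02 CPM in shPBRM1 libraries. Of the leukocyte markers, PTPRC averaged 0.797 CPM in control and 0.132 CPM in shPBRM1 libraries, and CD14 0.331 CPM and 0.678 CPM. The endothelial markers PECAM1 and CDH5 summed to 0.0804 to 0.456 CPM in control and 0.0257 to 0.0666 CPM in shPBRM1 libraries. The epithelial markers EPCAM and CDH1 summed to 4.67 to 5.37 CPM in control and 1.27 to 1.97 CPM in shPBRM1 libraries. CD3E was at 0 in each library, and the part of these markers in the results was not tested.

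PBRM1 silencing was accompanied by lower transcript levels of all 5 NF-kB subunit genes, of TNFAIP3 and of BIRC3, by a higher level of TNIP1, and by no detected change of NFKBIA and NFKBIE. Of the 10 genes, 8 passed edgeR's quasi-likelihood test at an adjusted p under 0.05, 7 of them lower and 1 higher, where 64.7% of the 15450 tested genes passed, 33.2% lower and 31.5% higher. The changes were moderate. None of the 10 genes passed the test with a fold change over 2 (0 also with DESeq2 and at an unadjusted p under 0.05), where 12.6% of all tested genes did. On the log2 scale their changes had a median of -0.36, beside -0.0080 over all tested genes, and a median size of 0.36, beside 0.35. The groups did not overlap in CPM for 8 of the 10 genes, beside 68.3% of all tested genes. In these bulk libraries, a lower level in every cell and fewer expressing cells cannot be told apart.

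**Figure D1:**
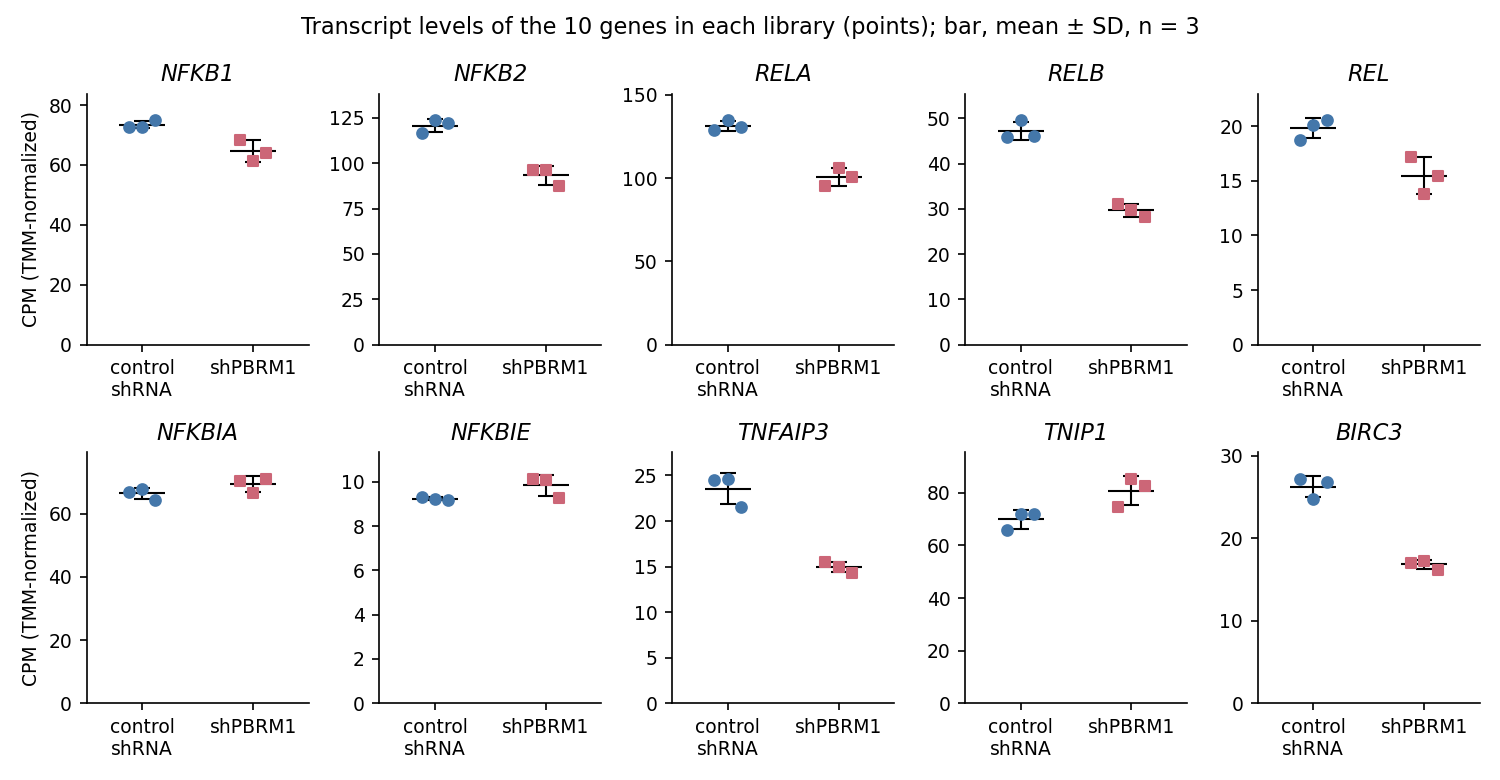
Transcript levels of the 10 genes in CPM (y axis, from 0), with 1 point for each of the 3 control shRNA (circles) and 3 shPBRM1 (squares) libraries and the mean ± SD as bars. For RELB, TNFAIP3 and BIRC3 the shPBRM1 libraries lay at 63.0%, 63.3% and 64.1% of the control mean, whereas NFKBIA and NFKBIE overlapped between the groups.

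RELA and NFKB1 encode the partners of the classical NF-kB dimer, RELA being its main transactivating subunit. RELA (chromosome 11, 65653596 to 65663094, GENCODE v29, GRCh38) was measured at 129, 135 and 131 CPM in control libraries and at 95.5, 106 and 101 CPM in shPBRM1 libraries 1, 2 and 3. Each shPBRM1 library was below each control library, and the group means were 131 ± 2.96 CPM and 101 ± 5.40 CPM (SD, n = 3). The log2 fold change was -0.38 ± 0.038 (SE, adjusted p = 6.21e-09, edgeR quasi-likelihood test). NFKB1 (chromosome 4, 102501329 to 102617302) was at 72.7, 72.8 and 74.9 CPM in control and at 68.5, 61.5 and 64.0 CPM in shPBRM1 libraries. This was the smallest of the 5 decreases among the subunit genes, with shPBRM1 library 1 close below the controls. The log2 fold change of NFKB1 was -0.18 ± 0.040 (SE, adjusted p = 3.78e-04), with a 95% interval of -0.27 to -0.10.

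REL, the c-Rel subunit best known from lymphocytes, had the lowest counts of the subunit genes, between 538 and 1036 per library. REL (chromosome 2, 60881521 to 60931610) was at 18.8, 20.1 and 20.5 CPM in control and at 17.2, 13.8 and 15.5 CPM in shPBRM1 libraries. The shPBRM1 libraries were spread more widely than the controls but remained below them, with a log2 fold change of -0.35 ± 0.075 (SE, adjusted p = 2.94e-04). It was -0.43 without shPBRM1 library 1, the highest of the 3. An annotated transcript on the same strand, AC010733.2, shares exon sequence with REL.

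The non-canonical pair moved furthest at its Rel partner. NFKB2 (chromosome 10, 102394110 to 102402529), which encodes the precursor that holds RELB, was at 117, 124 and 122 CPM in control and at 96.3, 96.5 and 87.4 CPM in shPBRM1 libraries. The groups were clearly separated, at 77.3% of the control mean and a log2 fold change of -0.37 ± 0.039 (SE, adjusted p = 1.44e-08). RELB (chromosome 19, 45001430 to 45038198) was at 45.8, 49.5 and 46.2 CPM in control and at 31.1, 29.8 and 28.3 CPM in shPBRM1 libraries. RELB had the largest change of the 10 genes, from 47.2 ± 2.04 CPM to 29.7 ± 1.43 CPM (SD, n = 3), which is a log2 change of -0.67 ± 0.052 (SE, adjusted p = 1.07e-10). In size this change exceeded those of 75.9% of all tested genes. Among 11541 tested genes averaging 100 counts or more, ZNF70, SUPV3L1 and IRS2 differed least from RELB in centred log2 CPM over the 6 libraries. Their root mean square differences were 0.021, 0.027 and 0.031, and their log2 fold changes -0.68, -0.63 and -0.66. With 2 groups of libraries, a small difference mostly reflects a similar fold change, and shared regulation was not tested.

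**Figure D2:**
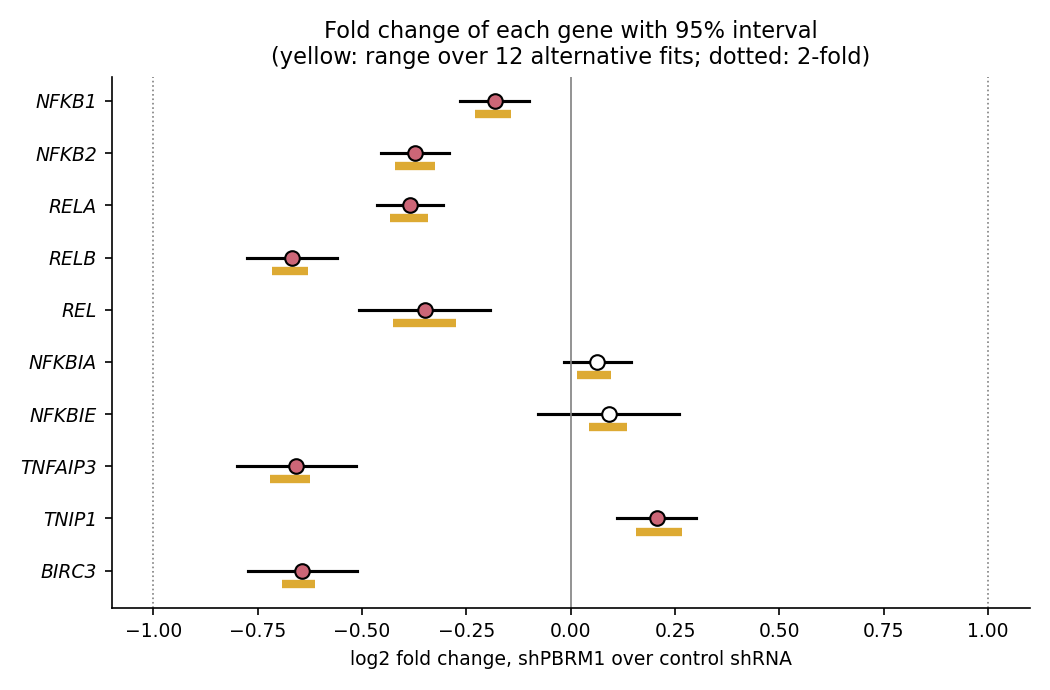
The log2 fold change of each gene (x axis, shPBRM1 over control shRNA) with its 95% interval (black line) and its range over 12 alternative fits (yellow bar). Filled points passed the test at an adjusted p under 0.05, and the 10 values lie between -0.67 for RELB and 0.21 for TNIP1, inside the dotted lines of a 2-fold change.

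The balance between subunits was compared within each library, where scaling between libraries plays no part. The log2 ratio of RELB to RELA in CPM was -1.49, -1.44 and -1.50 in control and -1.62, -1.83 and -1.83 in shPBRM1 libraries 1, 2 and 3. All shPBRM1 ratios were lower, and the group means differed by -0.28 (exact two-sided permutation test, p = 0.1, which is the lower limit for groups of 3 and misses 0.05). The log2 ratio of NFKB2 to NFKB1 was 0.68, 0.76 and 0.71 in control and 0.49, 0.65 and 0.45 in shPBRM1 libraries. These did not overlap either, with a difference of -0.19 (exact permutation p = 0.1).

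Divided by gene length, the 5 subunit genes together reached 77.8, 81.7 and 79.9 CPM per kilobase of exon in control and 61.4, 61.6 and 58.6 CPM per kilobase in shPBRM1 libraries. The summed level was 75.9% of the control mean, with no overlap between the groups (exact two-sided permutation test, p = 0.1). RELB supplied 19.5% ± 0.466 (SD, n = 3) of this sum in control and 16.2% ± 0.460 in shPBRM1 libraries, and NFKB1 14.7% ± 0.420 and 17.1% ± 0.997. Both shares were separated between the groups (exact permutation p = 0.1 for each). NFKB2 supplied 33.8% and 34.4%, RELA 30.1% and 30.5%, and REL 1.89% and 1.94%, all of which overlapped between the groups. The difference in the NFKB2 share moved from 0.60 percentage points to 0.31 without shPBRM1 library 1, 0.32 without library 2 and 1.16 without library 3. That in the RELA share turned from 0.32 percentage points to -0.22 without library 2 and to -0.15 without library 3, and that in the REL share from 0.058 to -0.031 without library 1. These shares depend on the annotated length, which was 13170 bases for REL and 3035 for RELB.

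**Figure D3:**
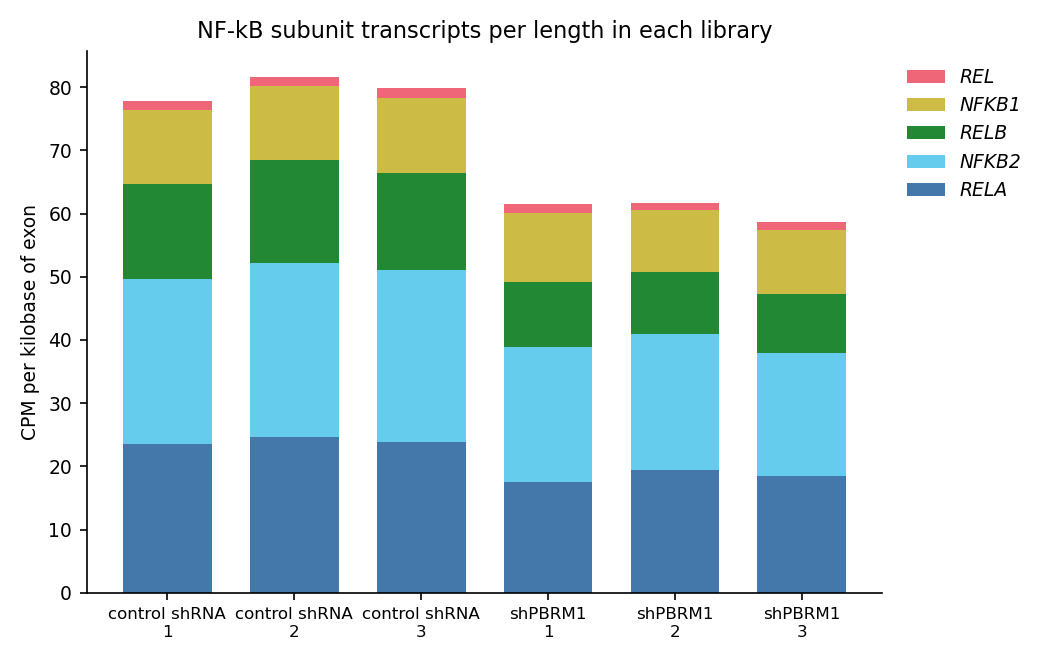
Stacked levels of the 5 subunit genes in CPM per kilobase of exon (y axis, from 0) in each of the 6 libraries, with 1 color for each gene. The stacks reach 77.8 to 81.7 in control and 58.6 to 61.6 in shPBRM1 libraries, and the RELB segment narrows from 19.5% to 16.2% of the stack.

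Among all 10 genes the order of levels per kilobase changed around RELB. In control libraries the means ran from NFKBIA (28.01 CPM per kilobase), NFKB2 (26.9) and RELA (24.04) through RELB (15.5), TNIP1 (12.1) and NFKB1 (11.7) to TNFAIP3 (4.67), NFKBIE (3.57), BIRC3 (3.49) and REL (1.504). The neighbors NFKBIA and NFKB2, TNIP1 and NFKB1, and NFKBIE and BIRC3 overlapped in their library values there. In shPBRM1 libraries RELB (9.79 CPM per kilobase) came after TNIP1 (14.0) and overlapped with NFKB1 (10.3). NFKBIA (29.2) was then above NFKB2 (20.8) in every library, and NFKBIE (3.81) above TNFAIP3 (2.96).

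The 2 IkB inhibitor genes were not detectably changed. NFKBIA encodes IkB alpha, the rapidly resynthesized inhibitor of RELA dimers (chromosome 14, 35401511 to 35404749). Its level was 66.8, 68.0 and 64.6 CPM in control and 70.5, 66.6 and 71.1 CPM in shPBRM1 libraries. The groups overlapped, and the log2 fold change was 0.064 with a 95% interval of -0.016 to 0.14 (adjusted p = 0.149). Without shPBRM1 library 2 it was 0.097 and passed the test (adjusted p = 0.0308), while over all 12 alternatives its adjusted p ranged from 0.0308 to 0.760. NFKBIE, which encodes IkB epsilon (chromosome 6, 44258166 to 44265788), was at 9.30, 9.22 and 9.16 CPM in control and at 10.1, 10.1 and 9.29 CPM in shPBRM1 libraries. Its log2 fold change was 0.091 with a 95% interval of -0.078 to 0.26 (adjusted p = 0.339). With 347 to 608 counts per library, NFKBIE was the least deeply covered of the 10 genes, and its lowest count alone carried a counting error of 5.37%. The log2 ratio of NFKBIA to RELA in CPM was -0.95, -0.98 and -1.02 in control and -0.44, -0.67 and -0.50 in shPBRM1 libraries, a difference of 0.45 without overlap (exact two-sided permutation test, p = 0.1).

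TNFAIP3 and TNIP1, whose products act together, moved in opposite directions. TNFAIP3 encodes A20, an NF-kB-induced ubiquitin-editing enzyme that shuts off signaling (chromosome 6, 137867188 to 137883312). It was at 24.5, 24.6 and 21.6 CPM in control and at 15.5, 15.0 and 14.3 CPM in shPBRM1 libraries. Its level fell in each shPBRM1 library below the lowest control, with a log2 fold change of -0.66 ± 0.069 (SE, adjusted p = 1.47e-08). TNIP1 encodes ABIN-1, an adaptor that binds A20 and polyubiquitin chains (chromosome 5, 151029945 to 151093577). It was at 65.7, 72.0 and 72.1 CPM in control and at 74.6, 85.3 and 82.7 CPM in shPBRM1 libraries. All shPBRM1 libraries were above the controls, library 1 by the least, and the log2 fold change was 0.21 ± 0.046 (SE, adjusted p = 4.29e-04), or 0.27 without that library.

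BIRC3 encodes cIAP2, a ubiquitin ligase induced by NF-kB that acts at the TNF receptor complex and restrains cell death (chromosome 11, 102317450 to 102339403). BIRC3 was at 27.2, 24.8 and 26.8 CPM in control and at 17.1, 17.2 and 16.2 CPM in shPBRM1 libraries. The groups were well separated, from 26.3 ± 1.30 CPM to 16.8 ± 0.560 CPM (SD, n = 3), and the log2 fold change was -0.64 ± 0.063 (SE, adjusted p = 5.10e-09). Its paralog BIRC2, which encodes cIAP1, had a log2 fold change of -0.011 (adjusted p = 0.819). Thus RELB, TNFAIP3 and BIRC3 formed the lower end of the 10 genes, with overlapping 95% intervals of -0.78 to -0.56, -0.80 to -0.51 and -0.77 to -0.51. In the annotation, transcripts on the opposite strand share exon sequence with RELA (AP001362.2) and TNFAIP3 (AL357060.1), and whether reads were counted by strand is not given in the sources used here.

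The wider pathway was examined in 6 lists of 79 genes, of which 73 were tested, 15 were higher and 41 lower, beside 31.5% and 33.2% of all tested genes. With a fold change over 2, 2 were higher and 17 lower, beside 2.87% and 9.68% of all tested genes. The other IkB proteins were mostly lower. Of 4 genes tested, NFKBIZ, BCL3 and NFKBIB fell and NFKBID did not pass (log2 fold change 0.22, adjusted p = 0.199). NFKBID passed as higher without shPBRM1 library 3, with a count of 1 higher gene in the list. NFKBIZ, which encodes the nuclear coactivator IkB zeta, fell from 114 ± 3.98 CPM to 51.9 ± 1.66 CPM (SD, n = 3), which is a log2 change of -1.13 (adjusted p = 1.29e-17). BCL3, a nuclear IkB that binds NFKB1 and NFKB2 products, had a log2 fold change of -0.74 and NFKBIB of -0.38. The opposite-strand gene SIRT2 shares exon sequence with NFKBIB.

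Of 11 genes of the IkB kinase complex and its upstream kinases, 6 did not pass the test, beside 5450 of the 15450 tested genes. In this list, 1 gene was higher and 4 were lower, beside 31.5% and 33.2% of all tested genes. The median log2 fold change of the list was 0.023. MAP3K8, which encodes the NFKB1-bound kinase TPL2, fell from 174, 256 and 216 counts in control to 42, 13 and 34 counts in shPBRM1 libraries (log2 fold change -3.12, adjusted p = 2.07e-12). IKBKE (-0.63), IKBKG (-0.39) and IKBKB (-0.25) fell by less on the log2 scale. IKBKG, the regulatory subunit of the complex, has a near-identical pseudogene, so that its value is uncertain. CHUK, a catalytic subunit of the complex, was the only gene of the list that passed as higher, at a log2 fold change of 0.12 (adjusted p = 0.0279). ERLIN1, on the same strand, shares exon sequence with CHUK. CHUK did not pass without control library 1 or 2, without shPBRM1 library 1 or 3, with DESeq2 or with library size alone, and its groups overlapped. The count of higher genes was 2 with the replicate number as a block, MAP3K7 being added, 2 with RLE factors, and 3 without shPBRM1 library 2. It was 0 with DESeq2, with library size alone, without control library 1 and at an adjusted p under 0.001. Without control library 2 and without shPBRM1 library 1 or 3 the count stayed at 1, so that another gene than CHUK passed there. MAP3K14, the kinase that starts the non-canonical pathway, had a log2 fold change of 0.023 (adjusted p = 0.684).

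Among receptors and adaptors, 11 of 21 tested genes fell and 5 rose, beside 33.2% lower and 31.5% higher among all tested genes. TLR3, the endosomal receptor for double-stranded RNA, fell from 16.9 ± 0.842 CPM to 1.04 ± 0.253 CPM (log2 fold change -4.04, adjusted p = 3.96e-18). TNFRSF1B, the second TNF receptor, had a log2 fold change of -1.64, TRAF5 of -1.49, MYD88 of -1.36 and CD40, at 2 to 32 counts, of -2.07. IL1RAP, the interleukin 1 receptor accessory chain, rose from 248 ± 2.61 CPM to 356 ± 4.69 CPM (log2 fold change 0.52), and IRAK1 rose by 0.26. TRAF3 (0.13), TNFRSF1A (0.10) and IL1R1 (0.089) rose by less, and 2 of the 5 passed without control library 1 and with library size alone. TNFRSF1A also did not pass without control library 2 or 3, and neither TNFRSF1A nor IL1R1 passed without shPBRM1 library 2, nor IL1R1 without shPBRM1 library 3. For TRAF3, a brake on the non-canonical pathway, the adjusted p was 0.0136, and 0.106 without control library 1.

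Of 12 genes of ubiquitin editing, 5 fell and 2 rose, so that 7 passed the test, which is close to the 64.7% among all tested genes. RBCK1, a subunit of the linear ubiquitin ligase, fell from 146 ± 4.46 CPM to 49.3 ± 4.32 CPM (log2 fold change -1.57, adjusted p = 1.47e-18). CYLD, a deubiquitinase that restrains the pathway, had a log2 fold change of -0.90 and OTUD7B, a deubiquitinase of TRAF3, of -0.57. TNIP3 (-0.50) and ZC3H12A (-0.43) fell as well, whereas OTULIN (0.19) and RNF11 (0.22) rose.

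Of the 6 lists, the inflammatory target genes had the median furthest from 0 (log2 fold change -1.13, beside -0.0080 over all tested genes). Of 17 tested, 15 fell, 9 of them by more than 2-fold, beside 33.2% and 9.68% of all tested genes. IL6 fell from 144 ± 2.06 CPM to 9.19 ± 0.302 CPM (SD, n = 3), which is a log2 change of -3.97 (adjusted p = 3.61e-27). CCL5, a T cell chemokine, had a log2 fold change of -4.29 (adjusted p = 7.17e-20). CXCL10, a chemokine also induced by interferon, had 231, 298 and 300 counts in control and 2, 2 and 4 counts in shPBRM1 libraries. Relative to summed library sizes this was 0.783% of the control level, with a 95% counting interval of 0.337% to 1.55%, and by mean CPM 0.807%. The interval treats each count as independent and may be too narrow at such low counts. CXCL1 rose from 220.1 ± 5.34 CPM to 267 ± 5.58 CPM (log2 fold change 0.28, adjusted p = 7.37e-07), although CXCL2 (-0.20), CXCL3 (-0.96) and CXCL8 (-0.49) fell. CXCL1, CXCL2 and CXCL3 are close paralogs whose reads may be shared. IL1B, at a mean of 37.7 counts, also rose (log2 fold change 0.79, adjusted p = 0.0155), but did not pass without control library 2 or with DESeq2.

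The survival and early target genes were mixed, with 5 of 8 tested genes higher and 3 lower, beside 31.5% and 33.2% of all tested genes. CD83 rose from 9.01 ± 0.515 CPM to 34.8 ± 1.55 CPM (log2 fold change 1.95, adjusted p = 3.20e-17), and MMP9, at 11 to 111 counts, by a log2 fold change of 1.61. PLAU, which encodes urokinase, rose by 0.53, the antiapoptotic BCL2L1 by 0.45 and GADD45B by 0.28. CFLAR, which encodes the caspase inhibitor FLIP, had a log2 fold change of -0.94, KLF6 of -0.49 and XIAP of -0.21. The genes named outside the rule for named genes were taken up after their values were seen, to complete small counts or to stand beside a member. They are BIRC2, NFKBID, CHUK, MAP3K7, IKBKB, MAP3K14, CD40, MYD88, TNFRSF1A, IL1R1, TNIP3, ZC3H12A, CXCL2, CXCL3, CXCL8, IL1B, MMP9 and GADD45B.

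**Figure D4:**
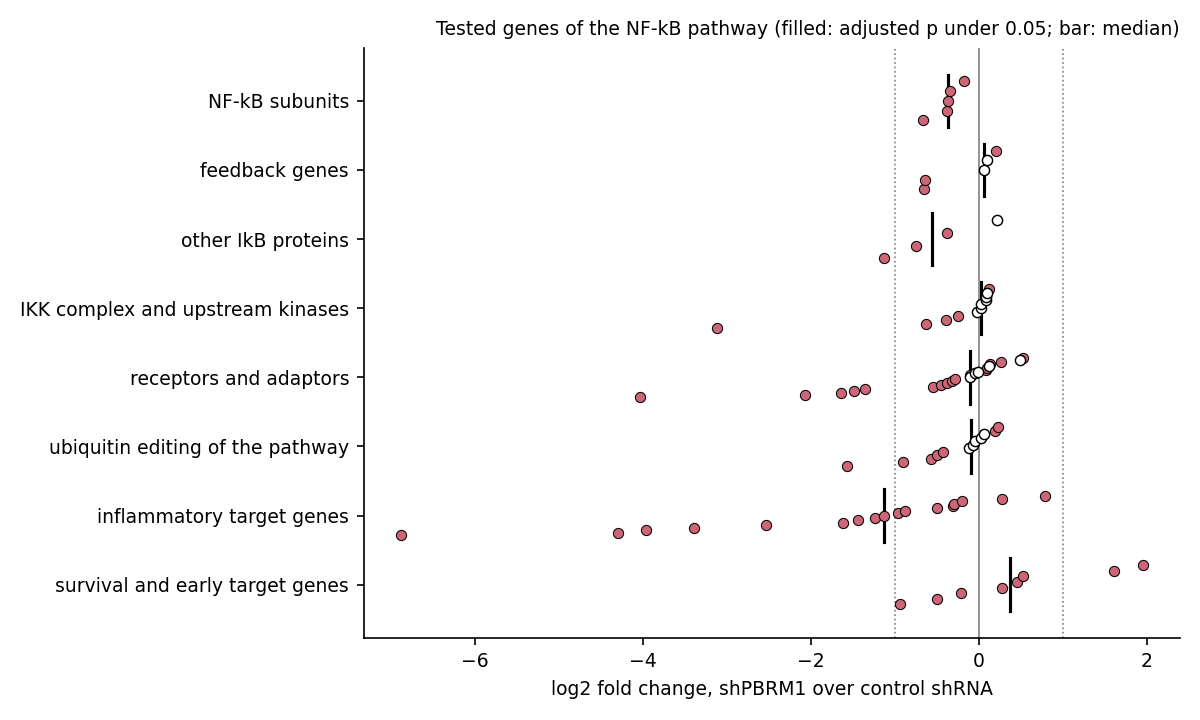
The log2 fold change (x axis, shPBRM1 over control shRNA) of each tested gene of the subunit, feedback and 6 pathway lists, filled where the adjusted p was under 0.05, with the list median as a bar and a 2-fold change as dotted lines. The 10 genes stay inside the dotted lines, whereas the inflammatory targets have a median of -1.13. The point at -6.88 is CXCL10, whose fitted value depends on the prior count since the shPBRM1 libraries held 2 to 4 counts.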

How the data were processed

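RNA-seq libraries were made by the submitters from total RNA of BT549 cells cultured in triplicate with a stranded poly(A) kit. The authors deposited a table of raw, unnormalized counts, 1 row per gene symbol. The submitters' processing notes name CASAVA 1.8.2, STAR 2.7.9a, featureCounts, DESeq2 1.24.0 and the build GRCh38.p7. The annotation and strand setting are not given in the sources used here. The table has 37887 rows, 14 with dates in place of symbols. The 3 control columns give the cell line and a number only and were matched to the control titles by that number. The p-values measure the spread between these cultures.

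After TMM scaling and filterByExpr, 15450 genes entered the quasi-likelihood F-test of edgeR 4.0.16 (R 4.3.3) with Benjamini-Hochberg adjustment. The standard error is the log2 fold change divided by the square root of F. CPM, except for the floor of detection, use TMM-scaled library sizes. Values of log2 CPM use a prior count of 2, and lengths the exon union of GENCODE v29 (10 of 10 genes matched by symbol). Alternatives were DESeq2 1.42.0, RLE factors, library size only, no filter, a filter at 50 counts on average, leaving out every library once, the replicate number as a block, and a threshold of 0.001. Same-numbered libraries, paired by the numbers in titles and columns, deviated together (correlations of 0.734, 0.593 and 0.419 over 5622 genes). Differently numbered ones gave -0.671 to 0.464, so that control 2 with shPBRM1 3 exceeded the lowest same-numbered value. Deviations from the mean of a group cancel within it, so that the correlations depend on one another and negative ones are partly forced. On simulated counts for shPBRM1 against control with 200 genes changed 2-fold, edgeR recovered 200 of 200 among 15409 tested, with 7 false calls. The simulation gave all genes a common dispersion and held no outlying library and no effect of the replicate number. It does not cover changes under 2-fold, as those of the 10 genes were, or data in which 64.7% of tested genes pass.

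Members and lists were chosen with earlier results of these data known. Pathway genes were named when among the 3 largest changes of a list in a direction, provided that they passed the 0.05 threshold, averaged 100 counts or more and had separate groups. Some items, including a leukocyte marker, are not reported here.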

Additional observations from a re-analysis of the deposited data

How the results depend on the processing

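The log2 fold changes of the 10 genes kept their direction under all 12 alternative fits. They also kept their side of the threshold, with the exception of NFKBIA, which ranged from 0.042 to 0.097 with each library left out and passed the test without shPBRM1 library 2. The count of higher genes among the 10 accordingly ranged from 1 to 2. With the replicate block, no call among the 10 genes changed, and beyond the kinase list no count of calls moved by over 1.5 times. Library size alone in place of TMM moved the median of all genes by -0.048 on the log2 scale. With a mean of at least 50 counts, 941 genes were lower and 270.0 higher by more than 2-fold, in place of 1496 and 443, because fewer genes were tested. Without division by length, the difference in subunit share was -0.065 percentage points for NFKB2 and -0.30 for RELA, in place of 0.60 and 0.32. With each library left out, the difference ranged from -0.22 to 1.34 percentage points for RELA, from 0.31 to 1.16 for NFKB2 and from -0.031 to 0.18 for REL. With the replicate pairs, the difference in log2 ratio was -0.28 for RELB to RELA, 0.45 for NFKBIA to RELA and -0.19 for NFKB2 to NFKB1 (exact sign-flip p = 0.25 for each, the smallest p that 3 pairs allow). Among counts of 1 to 10 in a library, 61.6% to 62.7% were even, so that counting errors, which treat each count as independent, may be too small for low counts. Outlying single libraries were not tested for, given 3 per group.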

Other observations

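IER3, an early NF-kB target listed among the survival genes and not tested because of its low counts, had 155 counts in shPBRM1 library 2 and between 0 and 2 counts in each of the 5 other libraries. Of the 37887 rows, it was the only 1 with at least 100 counts in a single library and at most 2 in each of the others. It was singled out after its values were seen. TNF, the prototype activator of the pathway, was also below the filter, with 2, 0 and 2 counts in control and 2, 4 and 12 counts in shPBRM1 libraries, and so were IL1A, CSF2, BCL2A1 and TLR4, at means of 6.83, 9.17, 3.67 and 1.33 counts.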
